A study of Mus musculus with 6 samples.

Results

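The 42 genes described here were near silent in the bone marrow of every control mouse and active in every mouse that expressed CDX2. They were selected on their read counts: a protein-coding gene of GENCODE M21 belonged to the group when its level was below 0.5 CPM (the reads of a gene as a share of all reads on genes, times 1000000) in each of 3 control mice and above 1 CPM in each of 3 *MxCDX2* mice. Of the 21303 protein-coding genes in the count files, 42 met both limits, or 0.197%, after *Cdx2* and *Vmn2r26* were set aside. The same values both chose the genes and describe them, so no test is given for their own difference between the groups, and the levels below are a description.

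All 6 animals were littermates. At the age of 3 months each was given poly(I:C) into the peritoneum 3 times at 10 µg per g, and RNA of bone marrow was taken 6 weeks later. *MxCDX2* mice (*RsCDX2::Mx1Cre*) carried the human CDX2 coding sequence at Rosa26 behind a stop sequence flanked by loxP sites, together with a Cre recombinase driven by the *Mx1* promoter. Poly(I:C) mimics viral RNA and switches on that promoter through interferon, in blood cells but also in other cell types. The control mice differed in genotype: control 1 was *RsCDX2*, control 2 was *Mx1Cre* and control 3 was wild type, so that no control genotype had a replicate. In each list of values below, controls 1, 2 and 3 come first and *MxCDX2* mice 1, 2 and 3 follow.

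CDX2 is a homeobox transcription factor of the posterior embryo and, in the adult, of the intestinal epithelium, where it maintains the identity of the gut lining. Healthy adult marrow does not use it, whereas leukemic cells of many patients do. Genes that blood cells do not need are usually held inactive, and a transcription factor placed in the wrong tissue may act at some of them. The group was therefore described by the tissues, gene families and chromosomal regions its genes normally belong to.

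Between 38646101 and 49899650 reads per mouse fell on genes and 1 read was worth 0.0200 to 0.0259 CPM. Reads on *Cdx2* numbered 4, 0 and 0 in the controls and 152, 155 and 183 in the *MxCDX2* mice (3.58, 3.56 and 3.67 CPM). These are reads assigned to the mouse gene, and the share of the human transgene's reads among them is unknown. All 14 marrow markers were detected in each mouse, with a summed level of 30561 to 38033 CPM in controls and 14787 to 19362 CPM in *MxCDX2* mice. In bulk marrow, fewer cells of a type and less RNA per cell cannot be told apart. Of these 14, 2 rose and 6 fell, and the p-values here and below measure only the spread between these mice. *Csf1r*, the receptor of monocytes and macrophages, rose from 184 ± 43.2 (SD, n = 3) to 842 ± 126 CPM (SD, n = 3; log2 fold change 2.08, adjusted p = 0.00196, edgeR's quasi-likelihood test).

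The summed level of the 42 genes was 5.10, 4.36 and 7.90 CPM in the controls and 188, 250 and 290 CPM in the *MxCDX2* mice. Controls had 197, 209 and 392 reads on all of them together, against 7961, 10904 and 14457 in *MxCDX2* mice. The ratio of the group means ran from 4.18 (*Syt3*) to 1204 (*Erv3*), with a median of 48.8. Every gene of the group had a read in at least 1 control, and 5, 7 and 1 of them had no read in controls 1, 2 and 3. Among the 4569 protein-coding genes with no read in any control, the highest mean in *MxCDX2* mice was 0.544 CPM, below the limit. Near silence in controls was common: 7958 protein-coding genes were below 0.5 CPM in each control, and the 42 were 0.528% of these. The opposite pattern, below 0.5 CPM in each *MxCDX2* mouse and above 1 CPM in each control, was found in 28 protein-coding genes.

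**Figure D1:**
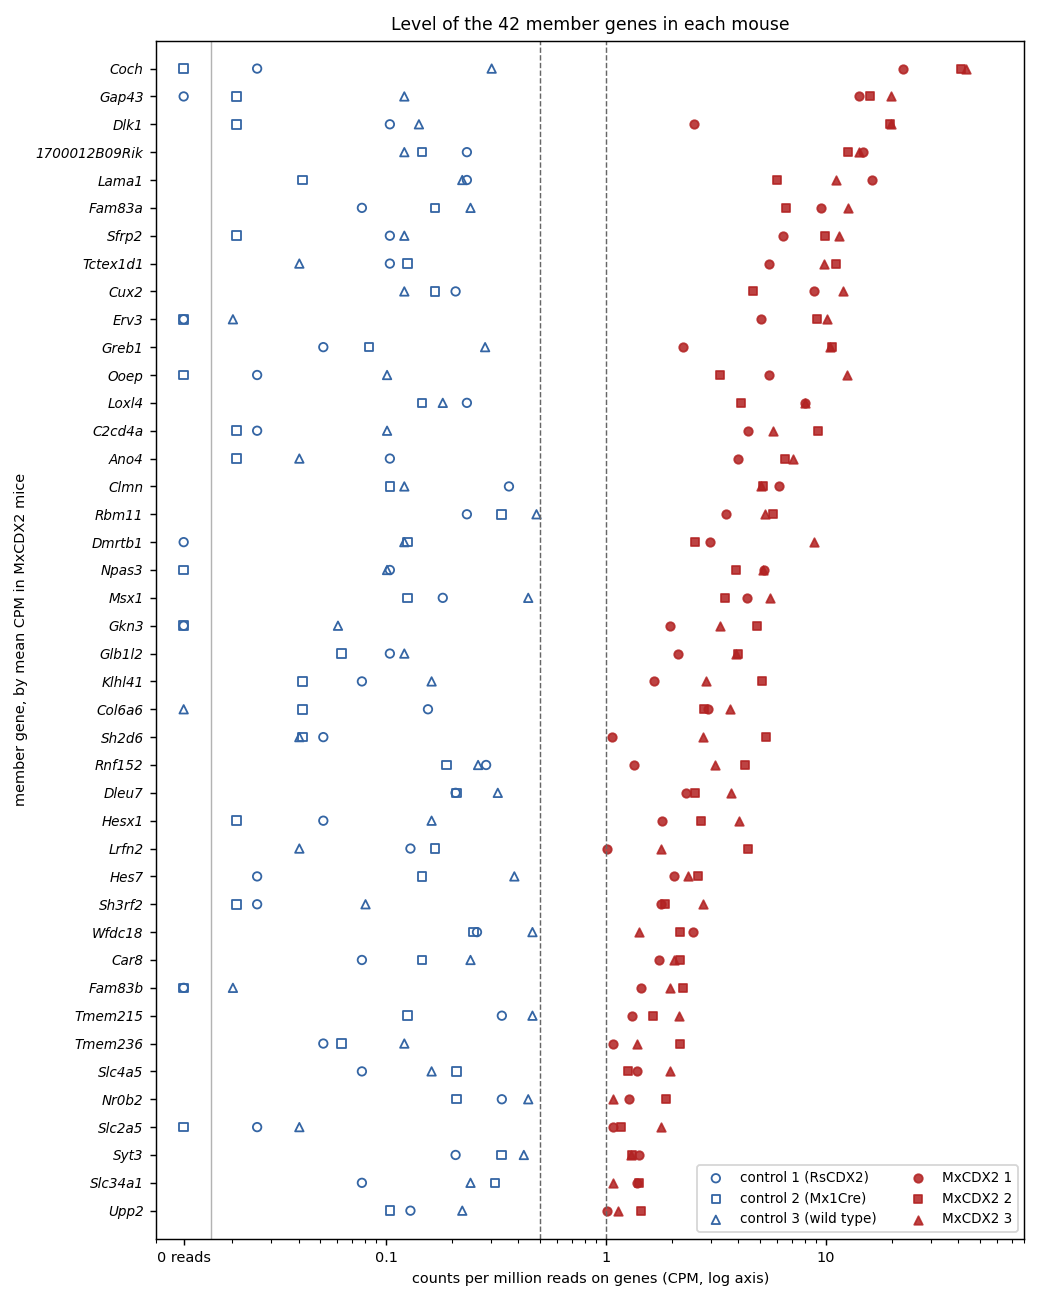
Level of each of the 42 genes in each mouse, in CPM on a log axis. Open blue symbols are the 3 controls, filled red symbols the 3 *MxCDX2* mice, dashed lines the limits of 0.5 and 1 CPM that chose the genes, and symbols left of the grey line had 0 reads. Mean levels in *MxCDX2* mice run from 1.20 CPM (*Upp2*) to 35.7 CPM (*Coch*).

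The share of each role among all near-silent protein-coding genes was not computed. The role counts here and below therefore show nothing particular to the group. Secreted and matrix proteins made up 8 of the 42 genes and held the highest count level. *Coch* encodes cochlin, an abundant extracellular protein of the inner ear. It had 0.0259, 0 and 0.302 CPM in controls and 22.5, 41.0 and 43.6 CPM in *MxCDX2* mice, a mean of 35.7 ± 11.5 (SD, n = 3). *Dlk1*, an imprinted gene for a membrane and secreted relative of the Notch ligands that is active in the embryo, had 0.104, 0.0209 and 0.141 CPM in controls and 2.52, 19.5 and 19.7 CPM in *MxCDX2* mice. *MxCDX2* mouse 1 thus had much less *Dlk1* than the other *MxCDX2* mice and still lay above every control. *Lama1* encodes the laminin alpha chain of early embryonic basement membranes. Its level was 0.233, 0.0417 and 0.222 CPM in controls and 16.3, 6.00 and 11.1 CPM in *MxCDX2* mice, here highest in mouse 1. *Sfrp2*, a secreted antagonist of Wnt ligands, had 0.104, 0.0209 and 0.121 CPM in controls and 6.38, 9.92 and 11.5 CPM in *MxCDX2* mice. *Loxl4*, a lysyl oxidase relative that cross-links matrix proteins, had 0.233, 0.146 and 0.181 CPM in controls and 8.06, 4.11 and 8.04 CPM in *MxCDX2* mice. *Gkn3*, a gastrokine of the stomach, was represented by 0, 0 and 3 reads in controls (0, 0 and 0.0604 CPM) and by 83, 212 and 165 reads in *MxCDX2* mice (1.96, 4.87 and 3.31 CPM). *Col6a6*, a chain of collagen VI, had 0.155, 0.0417 and 0 CPM in controls and 2.90, 2.78 and 3.67 CPM in *MxCDX2* mice. The level of *Wfdc18*, a small secreted protein with a WAP domain, ranged from 1.42 to 2.50 CPM in *MxCDX2* mice.

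Transcription factors were 7 of the 42, and 3 of these, *Cux2*, *Msx1* and *Hesx1*, are homeobox genes. The share of homeobox genes among all near-silent genes was not computed either. *Cux2*, a marker of upper layer neurons of the cortex, had 0.207, 0.167 and 0.121 CPM in controls and 8.86, 4.64 and 12.0 CPM in *MxCDX2* mice, a mean of 8.50 ± 3.69 (SD, n = 3). *Dmrtb1*, a factor of male germ cells, had 0, 0.125 and 0.121 CPM in controls and 2.97, 2.53 and 8.86 CPM in *MxCDX2* mice. The high value was that of mouse 3 alone. *Npas3* belongs to the bHLH-PAS family and acts in the developing brain. It had 0.104, 0 and 0.101 CPM in controls and 5.21, 3.91 and 5.17 CPM in *MxCDX2* mice. *Msx1*, which acts in the embryonic limb, face and teeth, had 0.181, 0.125 and 0.443 CPM in controls and 4.40, 3.47 and 5.59 CPM in *MxCDX2* mice. The levels of the other 3 were lower. *Hesx1*, a repressor of the embryonic forebrain and pituitary, ranged from 1.79 to 4.03 CPM in *MxCDX2* mice. The somite clock gene *Hes7* ranged from 2.03 to 2.62 CPM there. *Nr0b2*, an orphan nuclear receptor that represses bile acid synthesis in the liver, ranged from 1.08 to 1.88 CPM, and its ratio of 4.29 was close to the lowest of the group.

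Proteins known from nerve cells accounted for 6 genes. *Gap43*, a protein of axonal growth cones, had 0, 0.0209 and 0.121 CPM in controls and 14.2, 15.8 and 19.8 CPM in *MxCDX2* mice, a mean of 16.6 ± 2.90 (SD, n = 3). These were 7 reads over all controls and 2278 reads over all *MxCDX2* mice. *Ano4*, a membrane protein of the anoctamin family, had 0.104, 0.0209 and 0.0403 CPM in controls and 3.98, 6.55 and 7.07 CPM in *MxCDX2* mice. *Rbm11*, a tissue-restricted splicing regulator, came closest to the control limit with 0.233, 0.334 and 0.483 CPM in controls, and had 3.51, 5.77 and 5.29 CPM in *MxCDX2* mice. The other 3 of these genes had lower levels. *Lrfn2*, a synaptic adhesion protein, ranged from 1.01 to 4.43 CPM in *MxCDX2* mice. *Car8*, a carbonic anhydrase relative of Purkinje cells without enzyme activity, ranged from 1.74 to 2.16 CPM. *Syt3*, a calcium sensor of the synaptotagmin family, ranged from 1.30 to 1.41 CPM and was the most even gene of the group across *MxCDX2* mice.

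Signalling and ubiquitin proteins were 6 genes. Both *Fam83a* and *Fam83b*, members of a small family of scaffold proteins for casein kinase 1, were among them. *Fam83a* had 0.0776, 0.167 and 0.242 CPM in controls and 9.52, 6.57 and 12.6 CPM in *MxCDX2* mice. *Fam83b* had 0, 0 and 1 reads in controls and 61, 98 and 98 reads in *MxCDX2* mice, or 1.44 to 2.25 CPM. *Klhl41*, a muscle protein that serves as an adaptor of a ubiquitin ligase, had 0.0776, 0.0417 and 0.161 CPM in controls and 1.65, 5.15 and 2.85 CPM in *MxCDX2* mice. *Sh2d6*, an SH2 domain protein, had 0.0518, 0.0417 and 0.0403 CPM in controls and 1.06, 5.35 and 2.75 CPM in *MxCDX2* mice. Mouse 2 had the highest level of both. *Rnf152* and *Sh3rf2*, both RING-type ubiquitin ligases, ranged from 1.34 to 4.27 CPM and from 1.77 to 2.77 CPM in *MxCDX2* mice.

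Enzymes and transporters were 5 genes, all of low level. *Glb1l2*, a relative of the lysosomal beta-galactosidase, had 0.104, 0.0626 and 0.121 CPM in controls and 2.12, 4.00 and 3.91 CPM in *MxCDX2* mice. *Slc4a5*, a bicarbonate transporter, ranged from 1.26 to 1.96 CPM in *MxCDX2* mice. The fructose transporter *Slc2a5*, known from the small intestine, ranged from 1.08 to 1.78 CPM there, with 1, 0 and 2 reads in controls. *Slc34a1*, the sodium-phosphate cotransporter of the kidney, ranged from 1.08 to 1.42 CPM, and *Upp2*, a uridine phosphorylase of the liver, from 1.01 to 1.45 CPM.

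The other 10 genes have no shared role. *1700012B09Rik*, known by its clone name, had 0.233, 0.146 and 0.121 CPM in controls and 14.7, 12.6 and 14.2 CPM in *MxCDX2* mice, a mean of 13.9 ± 1.14 (SD, n = 3). *Tctex1d1*, of a dynein light chain family, had 0.104, 0.125 and 0.0403 CPM in controls and 5.49, 11.1 and 9.78 CPM in *MxCDX2* mice. *Erv3* is an endogenous retroviral sequence annotated as a protein-coding gene. It had 0, 0 and 1 reads in controls and 215, 397 and 503 reads in *MxCDX2* mice (5.06, 9.12 and 10.1 CPM), and the ratio of 1204 has a 95% counting interval of 200 to 44190 because the control side rests on 1 read. Its reads may be split with other copies of similar sequence. *Greb1*, known as an estrogen target, had 0.0518, 0.0834 and 0.282 CPM in controls and 2.24, 10.7 and 10.4 CPM in *MxCDX2* mice, the same low value in mouse 1 as seen for *Dlk1*. *Ooep*, a component of the oocyte's maternal protein complex, had 0.0259, 0 and 0.101 CPM in controls and 5.51, 3.31 and 12.5 CPM in *MxCDX2* mice. *C2cd4a*, a small C2 domain protein, had 0.0259, 0.0209 and 0.101 CPM in controls and 4.43, 9.21 and 5.73 CPM in *MxCDX2* mice. *Clmn*, an actin-binding membrane protein, had 0.362, 0.104 and 0.121 CPM in controls and 6.12, 5.19 and 5.09 CPM in *MxCDX2* mice. The lowest of these genes were *Dleu7* at 2.31 to 3.69 CPM, *Tmem215* at 1.32 to 2.14 CPM and *Tmem236* at 1.08 to 2.18 CPM in *MxCDX2* mice.

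CPM values do not compare genes of different length. Per kilobase of exon (RPKM), *1700012B09Rik* was highest in *MxCDX2* mice at 16.9 ± 1.40 RPKM (SD, n = 3), ahead of *Coch* at 11.9 ± 3.85 and *Gap43* at 10.9 ± 1.90 (SD, n = 3 each). The SD ranges of neighbours in this order overlapped. The median over the 42 genes was 1.26 RPKM, and 23 of them were above 1 RPKM. On this scale *Lama1*, *Cux2* and *Greb1*, whose transcripts are long, had 1.15, 0.843 and 0.812 RPKM.

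The genes differed in which *MxCDX2* mouse was highest. Of the 42, 26 were lowest in mouse 1, 11 in mouse 2 and 5 in mouse 3, while 7 were highest in mouse 1, 17 in mouse 2 and 18 in mouse 3. The median coefficient of variation over the *MxCDX2* mice was 29.0%, against 15.2% for 5755 other protein-coding genes in the same CPM range. Those other genes were also most often lowest in mouse 1, at 44.1% of them against 61.9% of the 42. In 8 genes the highest *MxCDX2* mouse had more than 3 times the level of the lowest, among them *Dlk1* (7.82-fold), *Sh2d6* (5.05-fold), *Greb1* (4.79-fold) and *Lrfn2* (4.38-fold), all lowest in mouse 1. *Ooep* (3.79-fold) and *Dmrtb1* (3.51-fold) were lowest in mouse 2 and highest in mouse 3. In 10 genes the spread was below 1.5-fold. Reads assigned to the mouse *Cdx2* gene differed little, at 3.56 to 3.67 CPM, and the share of transgene reads among them is unknown. Among controls, the wild-type mouse had the highest level for 27 of the 42 genes. The matching share of other protein-coding genes was not computed for the controls.

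**Figure D2:**
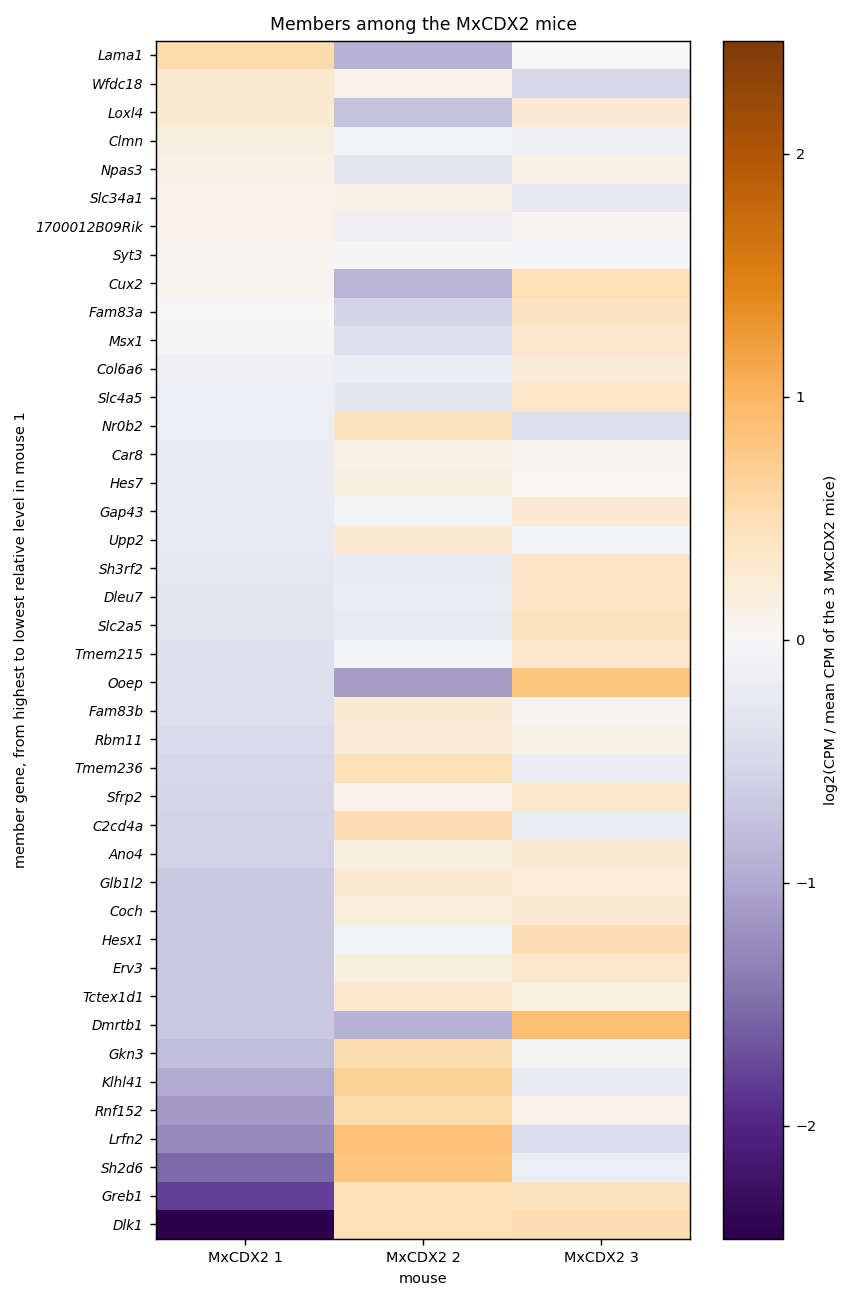
Level of each gene in each *MxCDX2* mouse relative to its mean over the 3 mice, on a log2 scale. Orange is above and violet below the mean. *Dlk1* and *Greb1* at the bottom were lowest in mouse 1, whereas *Lama1* at the top was highest there, and *Ooep* and *Dmrtb1* were highest in mouse 3.

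By their best known normal site, 8 genes belong to the nervous system (*Gap43*, *Cux2*, *Ano4*, *Rbm11*, *Npas3*, *Lrfn2*, *Car8* and *Syt3*) and 6 to the embryo (*Dlk1*, *Lama1*, *Sfrp2*, *Msx1*, *Hesx1* and *Hes7*). Another 5 belong to liver, kidney or gut (*Gkn3*, *Nr0b2*, *Slc2a5*, *Slc34a1* and *Upp2*), 2 to the germline (*Dmrtb1* and *Ooep*), 1 to the inner ear (*Coch*) and 1 to skeletal muscle (*Klhl41*). No site was assigned to the other 19, among them *Tmem236* and *Greb1*, which the lists of intestinal and posterior embryo genes below also held. Sites were assigned from general knowledge, and their shares among all near-silent protein-coding genes were not computed. The site counts therefore show nothing particular to the group. The median *MxCDX2* level was 6.88 CPM for the embryo genes, 4.81 CPM for the nervous system genes and 1.35 CPM for the genes of liver, kidney or gut.

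Markers of several non-hematopoietic cell types were read beside these sites. Those of neurons, liver and inner ear summed to at most 1.45 CPM in any mouse. Germ cell markers summed higher in each *MxCDX2* mouse than in any control, and skeletal muscle markers did so in *MxCDX2* mice 1 and 2. Bone and stroma, endothelium and epithelium are not among the sites assigned to the 42, and no kidney markers were listed. Of 6 neuronal markers, *Snap25* had no read in any mouse, and their summed level was 1.09 to 1.45 CPM in controls and 0.505 to 1.44 CPM in *MxCDX2* mice. The 4 liver markers, albumin (*Alb*) among them, summed to at most 0.504 CPM in any mouse, and the 3 inner ear markers to at most 1.09 CPM in controls and 0.299 CPM in *MxCDX2* mice. Of 4 germ cell markers, *Ddx4*, an RNA helicase, was tested and rose from 1.25 ± 0.0556 (SD, n = 3) to 4.03 ± 0.847 CPM (SD, n = 3; log2 fold change 1.56, adjusted p = 0.00903, edgeR's quasi-likelihood test), while *Dazl*, *Sycp3* and *Zp3* were at most 0.0689 CPM in each mouse. The 6 skeletal muscle markers summed to 1.37, 3.02 and 5.58 CPM in controls and 11.2, 18.2 and 4.11 CPM in *MxCDX2* mice. None of the 5 tested muscle markers passed the thresholds, and *Ckm*, muscle creatine kinase, had 1.81, 1.88 and 0.261 CPM in *MxCDX2* mice beside 1.65, 5.15 and 2.85 CPM of *Klhl41*. The part of these markers in the level of *Klhl41* was not tested. The 8 bone and stroma markers summed to 628, 300 and 1181 CPM in controls and 251, 171 and 357 CPM in *MxCDX2* mice, highest in the wild-type control. That control also had the highest level of most of the 42 genes among controls. A relation between these sums and the 42 genes was not tested. The 4 endothelial markers summed to 91.9, 87.3 and 203 CPM in controls and 140, 124 and 138 CPM in *MxCDX2* mice. Their median log2 fold change was -1.31, with 1 past the thresholds, which the sum does not show. The 5 epithelial markers summed to 18.9, 16.4 and 25.8 CPM in controls against 6.76, 4.34 and 5.61 CPM in *MxCDX2* mice, with no read on *Krt19* in any mouse. Over all 40 markers of these non-hematopoietic cells, 1 of 23 tested genes rose (4.35%, against 4.59% of all 15980 genes tested) and 4 fell (17.4%, against 9.03%), namely *Cdh1*, *Krt18*, *Cxcl12* and *Cdh5*. Their log2 fold changes were -2.42, -2.22, -1.81 and -1.73 with adjusted p-values of 0.00531, 0.0307, 0.0481 and 0.0420 (edgeR). The call of *Cdh1* held in every alternative, and those of the other 3 were each lost when the wild-type control, among other mice, was left out.

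The genes lie on 18 chromosomes, with none on chromosomes 8, X and Y (GRCm38), and 22 are on the plus and 20 on the minus strand. Chromosomes 4 and 9 hold 6 each. Those on chromosome 4 are *Car8*, *Tmem215*, *Tctex1d1*, *Dmrtb1*, *Nr0b2* and *Slc2a5*, and those on chromosome 9 are *1700012B09Rik*, *Glb1l2*, *C2cd4a*, *Fam83b*, *Ooep* and *Col6a6*. Chromosome 12, with 2.95% of the protein-coding genes, holds 5 of the 42, where a spread like that of all protein-coding genes would give 1.24. These are *Greb1* from 16670615 to 16800886, *Coch* from 51593341 to 51605771, *Npas3* from 53248677 to 54072175, *Clmn* from 104763117 to 104865076 and *Dlk1* from 109452823 to 109463336. Chromosome 7, with 9.06% of the protein-coding genes, holds *Syt3* only. No pair lay side by side: the nearest start sites were those of *Coch* and *Npas3*, 1.66 Mb apart with 9 protein-coding genes between them, and of *Fam83b* and *Ooep*, 1.81 Mb apart with 16 between them. No test was made of the spread over chromosomes.

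**Figure D3:**
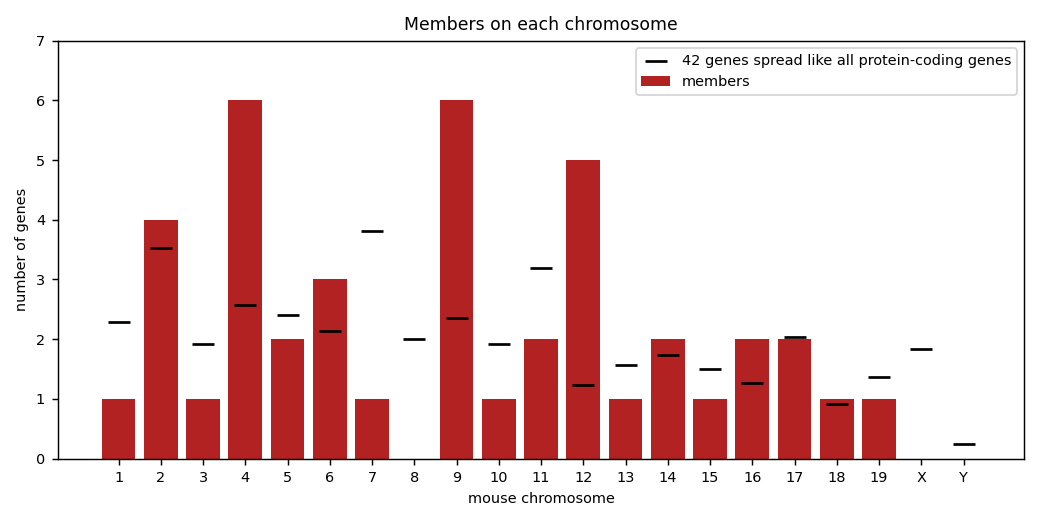
Number of the 42 genes on each mouse chromosome (bars), with the number that a spread like that of all protein-coding genes would give (black marks). Chromosomes 4 and 9 hold 6 genes and chromosome 12 holds 5, where the marks stand at 2.57, 2.35 and 1.24.

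Genes near the 42 were compared with the same test as all genes. Of 15980 genes tested, 734 were higher in *MxCDX2* mice (4.59%) and 1443 were lower (9.03%; 889 and 694 without *MxCDX2* mice 2 and 3), where a call needed an adjusted p-value under 0.05 and a log2 fold change beyond 1 in either direction. Among genes with a start site within 100 kb of one of the 42, 12 of 86 tested were higher (14.0%) and 7 lower (8.14%). Within 500 kb, 25 of 425 were higher (5.88%) and 39 lower (9.18%), and within 1 Mb 49 of 854 were higher (5.74%) and 80 lower (9.37%). Without *MxCDX2* mouse 3, 23 were lower within 500 kb. Of the 12 that rose within 100 kb, 8 are protein-coding and 4 are noncoding genes or pseudogenes (*Meg3*, *Gm12709*, *Gm12907* and *Gm11430*). *Meg3* and *Gm12709* lie within the same limits as the 42, and *Gm12709* overlaps one of them, so they are not apart from the selection. Without neighbours of either kind, 10 of 81 were higher within 100 kb (12.3%) and 22 of 419 within 500 kb (5.25%). Of the 39 genes that had a tested neighbour within 500 kb, 16 had one that rose and 19 had one that fell. *Wfdc18* alone had 5 that rose, of 26 tested. The same count was not made around genes outside the 42, so these numbers show nothing particular to the group.

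The following neighbours were chosen for their short distance after their values were seen. *Acvr1*, an activin and BMP receptor on the minus strand, starts 0.141 kb from the first start site of *Upp2* on the plus strand. It rose from 4.02 ± 0.704 (SD, n = 3) to 19.7 ± 2.46 CPM (SD, n = 3; log2 fold change 2.18, SE 0.20, adjusted p = 0.00174, edgeR's quasi-likelihood test), with all *MxCDX2* mice above all controls. *Vps13c*, a lipid transfer protein on the opposite strand 8.07 kb from *C2cd4a*, rose from 76.3 ± 3.66 (SD, n = 3) to 336 ± 60.9 CPM (SD, n = 3; log2 fold change 2.01, adjusted p = 0.00123). *Fut4*, a fucosyltransferase of myeloid cells, lies 18.6 kb from *1700012B09Rik* on the same strand and rose from 16.6 ± 0.750 (SD, n = 3) to 64.3 ± 3.00 CPM (SD, n = 3; log2 fold change 1.84, adjusted p = 7.70e-04). These 3 neighbours were thus active in controls, unlike the gene beside them. *Wfdc17*, a WAP domain gene 5.02 kb from *Wfdc18*, had 18.9, 16.6 and 53.3 CPM in controls and 172, 284 and 226 CPM in *MxCDX2* mice (log2 fold change 2.84, SE 0.46, adjusted p = 0.00790). *Gsta2*, a glutathione transferase 22.9 kb from *Ooep*, had 3, 3 and 26 reads in controls and 178, 164 and 449 reads in *MxCDX2* mice (log2 fold change 4.54, SE 0.85, adjusted p = 0.0126). Its order over the *MxCDX2* mice was that of *Ooep*, lowest in mouse 2 and highest in mouse 3. The calls of these 5 genes held in all 10 alternatives of the test.

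By size of change, the 4 leading neighbours within 500 kb were noncoding. *Gm11430*, a pseudogene 13.7 kb from *Wfdc18*, had no read in any control and 22, 83 and 60 reads in *MxCDX2* mice. *Gm12709*, antisense to *Tctex1d1* and overlapping it, had 1, 0 and 0 reads in controls and 58, 149 and 90 in *MxCDX2* mice. The library kit keeps the strand, but the strand setting of the counting is not given in the sources used here, so reads of *Tctex1d1* and of its antisense gene may not be told apart. Overlaps of this kind with at least 10 reads in *MxCDX2* mice were found for 4 of the 42 genes, the others being *Dleu7* with *Rnaseh2b*, *Hes7* with *9130213A22Rik* and *Syt3* with *1700008O03Rik*. *Rian* and *Meg3* followed, both near *Dlk1*.

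**Figure D4:**
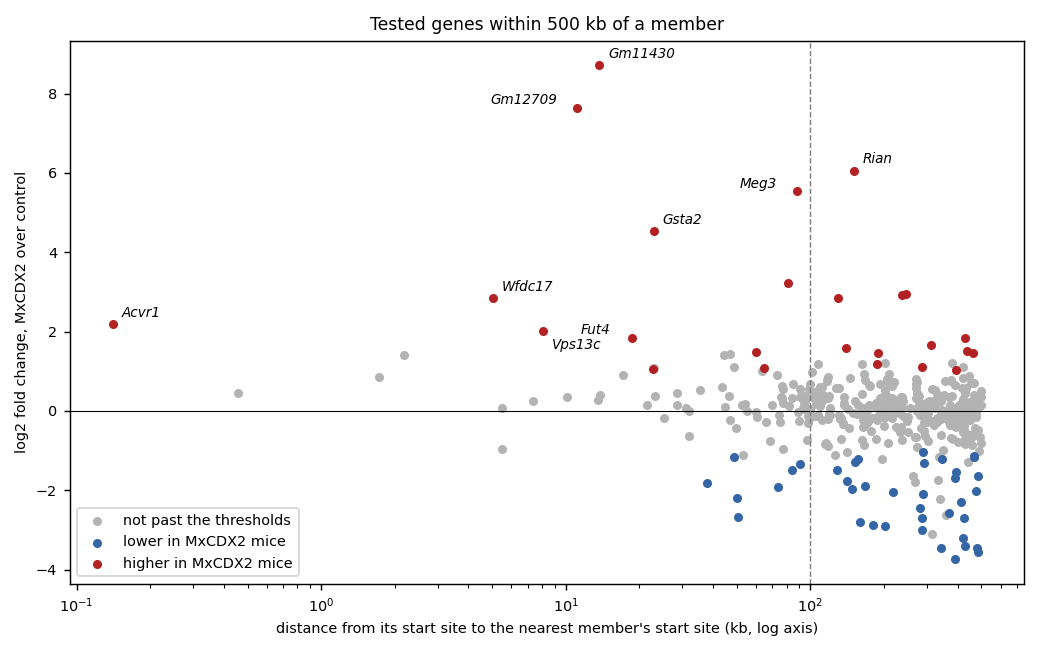
Log2 fold change between *MxCDX2* mice and controls of the 425 tested genes within 500 kb, against the distance from the start site of the nearest of the 42 genes on a log axis. Red points rose and blue points fell past the thresholds, and the dashed line marks 100 kb. Within 100 kb 12 genes rose, and *Acvr1* at 0.141 kb is the nearest.

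*Dlk1* lies in an imprinted cluster with the noncoding genes *Meg3* and *Rian*, which are transcribed from the other parental chromosome. *Meg3*, on chromosome 12 from 109541001 to 109571726 and 88.2 kb from *Dlk1*, had 0.259, 0.167 and 0.101 CPM in controls and 1.41, 22.5 and 3.37 CPM in *MxCDX2* mice (log2 fold change 5.54, SE 1.19, adjusted p = 0.0201, edgeR). That call was lost when any control was left out. *Rian* had 0.0518, 0.125 and 0.141 CPM in controls and 3.13, 14.3 and 6.69 CPM in *MxCDX2* mice (log2 fold change 6.06, SE 0.71, adjusted p = 0.00302). Mouse 2 was highest for both, whereas *Dlk1* was at 19.5 and 19.7 CPM in mice 2 and 3 alike. All 3 genes were lowest in mouse 1. *H19*, the imprinted noncoding gene of chromosome 7, had 0.0776, 0.0417 and 0.161 CPM in controls and 79.0, 29.4 and 64.9 CPM in *MxCDX2* mice (log2 fold change 9.11, SE 0.62, adjusted p = 0.00115), with the lowest level in mouse 2. Of 24 tested imprinted genes other than *Dlk1*, 6 rose and 6 fell, where 4.59% and 9.03% of all genes tested did, and the median log2 fold change was -0.54 against 0.00 over all genes. Among those that rose, *H19*, *Meg3* and *Rian* lie within the same limits as the 42, and *Rasgrf1* lies just outside them. The count of risers is therefore not apart from the selection. For *H19*, *Meg3* and *Rian* the p-values describe a difference that the limits already require. With any *MxCDX2* mouse left out, 2 fell. The largest fall was that of *Sgce* at -3.25 (SE 0.79, adjusted p = 0.0293), which had 3.34, 2.00 and 15.8 CPM in controls, and it was lost when any *MxCDX2* mouse was left out. Without control 1 or control 2, 3 imprinted genes rose instead of 6. Genes of other types within the same limits as the 42 numbered 7, among them *H19*, *Meg3*, *Rian* and *Gm12709*, and 1 further identifier has no entry in GENCODE M21.

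Outside the 42, genes of the tissues in which CDX2 normally acts moved in both directions or were not past the thresholds. The 42 themselves hold *Slc2a5* and *Tmem236* of the 35 intestinal genes listed. They also hold *Hes7* and *Greb1* of the 22 posterior embryo genes listed. These were removed from the counts because their rise is fixed by the selection. Both lists were drawn up with earlier results of these data known. How many of the 42 they hold therefore shows nothing particular to the group. Of 33 intestinal epithelium genes outside the 42, 11 were tested, 2 rose (18.2%, against 4.59% of all genes tested) and 3 fell (27.3%, against 9.03%). *Prr15* had 0.207, 0.0834 and 0.524 CPM in controls and 2.31, 5.12 and 2.44 CPM in *MxCDX2* mice (log2 fold change 3.47, SE 0.67, adjusted p = 0.0144, edgeR), a call lost without control 1, and *Lgals4*, a galectin of the gut, rose by 1.36 on the log2 scale (adjusted p = 0.0104). Only the 0.524 CPM in control 3 kept *Prr15* outside the limits of the 42. The count of intestinal genes that rose is therefore not apart from the selection. *Olfm4* (-3.34, adjusted p = 0.0137), *Lct* (-2.89, adjusted p = 0.00401) and *Slc26a3* (-2.73, adjusted p = 0.0137) fell, where *Olfm4* and *Slc26a3* were lost without *MxCDX2* mouse 2 or 3. The 33 genes summed to 565, 390 and 216 CPM in controls and 172, 160 and 157 CPM in *MxCDX2* mice. Part of this list was thus active in control marrow, and a fall in it need not concern gut cells. Without control 3, 4 genes of this list rose, and without control 1 only *Lgals4* did. *Cdx1*, *Mep1b*, *Guca2a*, *Hnf4g*, *Atoh1* and *Cldn2* had no read in any mouse. *Hnf4a*, a nuclear receptor of gut and liver, had 0.621, 0.730 and 3.87 CPM in controls and 5.02, 6.43 and 10.6 CPM in *MxCDX2* mice and did not pass (log2 fold change 1.99, adjusted p = 0.0986). Of 20 posterior embryo genes outside the 42, 5 were tested and 0 passed with edgeR, while 3 were lower and 0 higher at an unadjusted p under 0.05, and DESeq2 called 0 higher and 1 lower. *Cdx4*, *Evx1*, *Sp5* and *Sp8* had no read in any mouse.

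Relatives of the 42 genes were taken from families that hold at least 1 of them, where for *Gap43* and *Ooep* proteins of like function or of the same complex were counted. Of 142 such relatives, 79 were tested, 2 rose (2.53%, against 4.59% of all genes tested) and 12 fell (15.2%, against 9.03%), with a median log2 fold change of -0.35. The number that fell was 8, 7 and 5 without *MxCDX2* mice 1, 2 and 3. Those that rose were *Wfdc17*, given above, and *Slc4a7*, a bicarbonate transporter (log2 fold change 1.07, adjusted p = 0.00212, edgeR). Among those that fell, *Npas4* (-6.31, adjusted p = 0.0175), *Car1* (-4.12, adjusted p = 0.00386) and *Slc2a4*, a glucose transporter (-3.44, adjusted p = 0.00479), changed most. *Npas4*, an activity-induced factor related to *Npas3*, had 0.492, 5.11 and 8.52 CPM in controls and 0.118, 0.0689 and 0 CPM in *MxCDX2* mice, while *Npas3* was near silent in controls and at 3.91 to 5.21 CPM in *MxCDX2* mice. *Car1*, the carbonic anhydrase of red cells, had 388, 262 and 305 CPM in controls and 35.3, 13.2 and 10.6 CPM in *MxCDX2* mice, beside *Car8* of the group. The call of *Npas4* was lost when *MxCDX2* mouse 2 or 3 was left out.

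Promoter windows of 300 bases, from 250 before to 50 after the start site, were taken from RefSeq (GRCm38.p6) for 35 of the 42 genes, and 7 had no entry. A CDX motif, CCATAAA or CAATAAA on either strand, was found in the windows of 3 of the 35 genes (8.57%; 95% Wilson interval 2.96% to 22.4%), *Tmem236*, *Hes7* and *Tmem215*. The share was 8.32% of all 27025 genes with a window, 7.11% of 17492 protein-coding genes, and 10.3% of 5641 other protein-coding genes that were below 0.5 CPM in each control. The interval of the 35 genes takes in all of these shares. Before the start site it was found in *Tmem236* and *Hes7*, which are shown here for that reason, 5′ to 3′ along the gene with the motif in capitals. In *Hes7* the motif is on the opposite strand, so that the capitals show its reverse complement.
*Tmem236*, chr2:14174274-14174523, plus strand: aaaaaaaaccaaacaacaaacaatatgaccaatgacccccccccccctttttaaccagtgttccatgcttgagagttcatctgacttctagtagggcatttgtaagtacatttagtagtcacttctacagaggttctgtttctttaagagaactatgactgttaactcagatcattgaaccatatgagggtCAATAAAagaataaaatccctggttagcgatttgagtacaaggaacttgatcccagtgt
*Hes7*, chr11:69120203-69120452, plus strand: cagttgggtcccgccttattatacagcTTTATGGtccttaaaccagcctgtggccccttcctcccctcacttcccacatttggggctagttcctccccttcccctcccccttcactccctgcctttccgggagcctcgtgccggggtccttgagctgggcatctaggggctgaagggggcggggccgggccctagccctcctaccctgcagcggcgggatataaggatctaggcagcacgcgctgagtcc

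The letters TATAAA, read on the gene's strand between 40 and 20 bases before the start site, where a TATA box normally stands, were found for 5 of the 35 genes (14.3%; 95% Wilson interval 6.26% to 29.4%). The share was 2.98% of all protein-coding genes and 5.58% of the other protein-coding genes below 0.5 CPM in each control. This feature was chosen after the levels were known, and no test is given. The 50 bases before the start site of these 5 genes are shown with the letters in capitals, which line up 28 to 31 bases before the start.
*C2cd4a*, chr9:67832331-67832380, minus strand: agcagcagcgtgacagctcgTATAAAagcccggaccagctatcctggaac
*Erv3*, chr2:131859748-131859797, minus strand: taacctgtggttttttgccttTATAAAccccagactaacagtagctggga
*Nr0b2*, chr4:133553326-133553375, plus strand: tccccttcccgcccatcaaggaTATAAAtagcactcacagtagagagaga
*Upp2*, chr2:58755134-58755183, plus strand: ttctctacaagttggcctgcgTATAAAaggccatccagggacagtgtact
*Wfdc18*, chr11:83708954-83709003, plus strand: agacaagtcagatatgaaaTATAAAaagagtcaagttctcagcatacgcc

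For *Upp2* this is the downstream of its annotated start sites, and *Acvr1* neighbours the upstream one. Windows rich in CpG, with at least 50% G and C and a CpG content of at least 0.6 of that given by base composition, were found for 14 of the 35 genes (40.0%; 95% Wilson interval 25.6% to 56.4%). The share was 16.8% (15.9% to 17.8%) among the 5641 other protein-coding genes below 0.5 CPM in each control and 48.3% among all protein-coding genes. In this property the 35 genes lay nearer to protein-coding genes at large than to the other near-silent genes. The 35 were, however, also required to exceed 1 CPM in each *MxCDX2* mouse. Genes of a like level in those mice were not compared, so the difference may come with the selection.

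**Figure D5:**
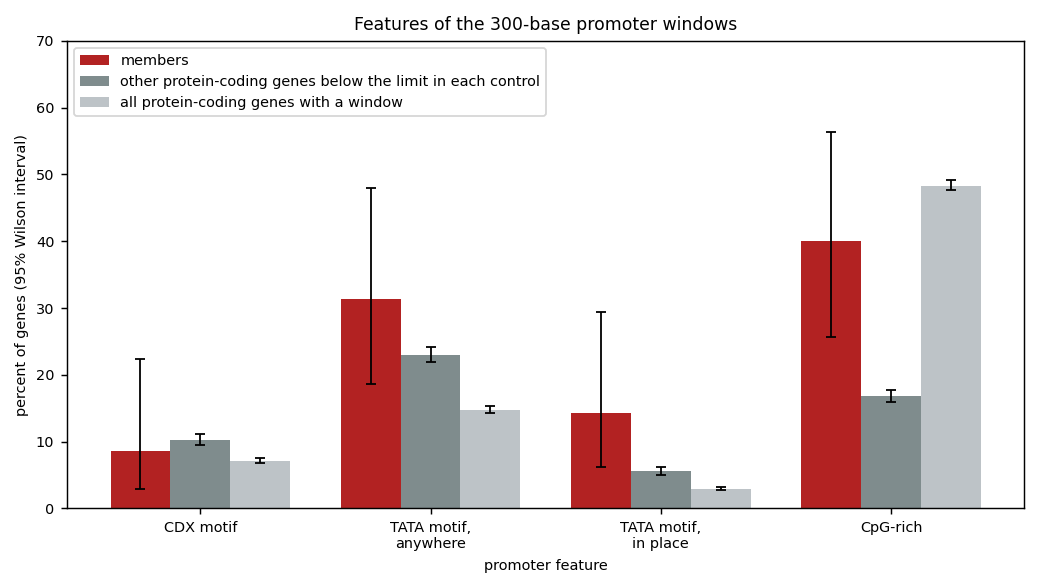
Share of genes whose 300-base promoter window holds a CDX motif, the letters of a TATA box anywhere on either strand, the same letters at their usual place, or a CpG-rich sequence. Red bars are the 35 genes of the group with a window, dark grey the 5641 other protein-coding genes below 0.5 CPM in each control and light grey all 17492 protein-coding genes. Error bars are 95% Wilson intervals, and the CDX motif stands at 8.57%, 10.3% and 7.11%.

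Close to the limits, membership turned on few reads. The genes nearest the control limit were *Rbm11*, *Wfdc18* and *Tmem215*, with 24, 23 and 23 reads in the wild-type control. Just outside stood *Chd5* with 24 and 25 reads in controls 2 and 3, *Exph5* with 25 reads in control 3 and *Rspo1* with 24 and 26 reads in controls 2 and 3. The genes nearest the other limit were *Lrfn2*, *Upp2* and *Sh2d6*, with 43, 43 and 45 reads in *MxCDX2* mouse 1. Just outside were *Rasgrf1* at 0.919 CPM and *Bves* at 0.872 CPM in mouse 1, and *Il17rd* at 0.902 CPM in mouse 3.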

How the data were processed

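Total RNA of bone marrow cells in Trizol was sequenced from 6 mice after library preparation with the Illumina TruSeq stranded mRNA kit. Reads were made with bcl2fastq 2.17.1.14, and the authors used STAR 2.5 for alignment (GRCm38) and HTSeq 0.6.1 for counting. The deposited values are raw counts of reads per gene, and the strand setting of the counting is not given in the sources used here. Of 39179 gene identifiers, 37693 matched GENCODE M21. Rows for uncounted reads were left out: 9.22% to 14.1% of all reads fell on no feature and 2.99% to 3.16% were ambiguous.

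CPM was the count divided by the reads on genes, times 1000000. The 42 genes and all gene lists were chosen with earlier results of these data known. Other genes were compared between 3 MxCDX2 and 3 control mice with edgeR 4.0.16 (R 4.3.3; quasi-likelihood test, TMM, filterByExpr) over 15980 genes, with Benjamini-Hochberg adjustment and thresholds of 1 for the absolute log2 fold change and 0.05 for the adjusted p-value. The procedure was tested on simulated data. Alternatives were DESeq2 1.42.0, its size factors in edgeR, total counts without TMM, every gene with a count, each mouse left out, and other limits, distances and motifs. The relatives were restricted to families that hold one of the 42 genes, and neighbours inside the limits were left out, both after seeing the data.

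The 25 genes with the highest mean CPM in MxCDX2 mice are given for every mouse, and the others by range. In each list of other genes, up to 4 past the thresholds with the largest absolute log2 fold change are named. Further genes were named after their values were seen: the neighbours chosen for distance, Csf1r, Hnf4a, Lgals4, Ddx4, Slc4a7, Ckm and genes at 0. Roles and normal sites come from general knowledge. Intervals of ratios are exact and of shares are Wilson intervals at 95%, and both cover counting error only. A result that is withheld is not reported here.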

Additional observations from a re-analysis of the deposited data

How the results depend on the processing

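Of 89 alternatives, judged on the count of genes that rose or were found, 72 left it within 1.5 times its value and 17 moved it further. Whether more genes rose or fell turned in 8 of 74 alternatives: near the 42 within 100 kb (12 against 7), among the listed relatives without *MxCDX2* mouse 2 (9 against 8) or 3 (8 against 6), among intestinal genes with DESeq2 or without the wild-type control (4 against 3) and without *MxCDX2* mouse 2 or 3 (2 against 1), and among non-hematopoietic markers without the wild-type control (2 against 1). The group of 42 genes grew to 88 with a control limit of 1 CPM and shrank to 24 with an MxCDX2 limit of 2 CPM, and with each mouse left out in turn it held 43 to 68 genes, the 68 without the wild-type control. When uncounted reads were added to the totals, it held 41 genes, of which only 35 were among the 42. A similar count can thus hide a change of genes. Genes that rose near the 42 numbered 25 within 500 kb, 12 within 100 kb and 49 within 1 Mb. The intestinal list had 4 higher genes with DESeq2 and 1 to 4 with a mouse left out, against 2. The non-hematopoietic markers had 3 with DESeq2, 2 with every gene that had a count and 1 to 2 with a mouse left out, against 1. Imprinted genes that rose numbered 3 to 5 with a mouse left out, against 6. A CDX motif was found in 5 promoters as TTTATG and in 9 as TTTATG or TTTATT, against 3. The cause of these changes was not tested, apart from wider limits, distances and motifs, which take in more genes by construction. The list of relatives as first drawn up held 37 families, 5 of them and the R-spondins with no relation to the 42, and gave 8 that rose and 14 that fell among 101 tested. The families with a gene among the 42, a choice made after seeing the data, gave 2 and 12, and 22 neighbours rose within 500 kb without those inside the limits or overlapping the 42. Over all genes tested, 511 to 924 rose and 694 to 1482 fell with a mouse left out. Of the 172 genes called in the lists, 103 to 152 were still called with a mouse left out and 0 turned sign. No paired analysis was possible because the control labels carry no replicate number and the numbers used here only follow the order of the samples. With 3 mice per group, an exact permutation test of a single gene cannot go below p = 0.1.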

Other observations

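Outside the protein-coding genes, 3 further annotated genes lay within the same limits besides *H19*, *Meg3*, *Rian* and *Gm12709*. *Gm12648*, a long noncoding RNA of chromosome 4, had 4.15, 5.31 and 7.92 CPM in *MxCDX2* mice and 0.0518, 0 and 0.0806 CPM in controls. *Gm9920*, a processed transcript of chromosome 15, had 3.18, 4.62 and 4.71 CPM in *MxCDX2* mice and 0.0776, 0.334 and 0.282 CPM in controls. *Gm24843*, annotated as a small nucleolar RNA on chromosome 6, had 90, 336 and 166 reads in *MxCDX2* mice and no read in any control, although the library selects polyadenylated RNA.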
